A study of Mus musculus with 24 samples.

Results

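The 9 genes Hk1, Hk2, Pfkm, Pfkp, Pfkfb1, Pfkfb2, Pfkfb3, Pfkfb4 and Tigar encode the enzymes that open and pace glycolysis, together with the phosphatase that works against them. They were chosen by name and not by a threshold on measured values, though with earlier results of these data known. Other genes of these families, such as Pfkl, were not among them. The tables list 55487 genes. A filter on low values (10 or more normalized counts in 6 or more of the 24 libraries) kept 14541 of them for testing, and all 9 passed it, Pfkfb1 with 23 libraries at or above the minimum and the others with 24. RNA was sequenced from C2C12 myotubes, the multinucleated muscle cells that the mouse myoblast line C2C12 forms in low-serum medium. The cells were wild type, were differentiated under 5 % O2, were taken at day 5 and came from a single established line, so the replicates are cultures and not animals. After 2 h under 5 % or 1 % O2 they were left unstimulated (5 % CTRL and 1 % CTRL) or were electrically stimulated in short repeated bouts and harvested at once (5 % STIM and 1 % STIM), with 6 libraries in each group. The reference for O2 is thus 5 %, the level at which the cells were also differentiated. The stimulated cultures had their medium replaced around the stimulation. The sources used here do not say whether the unstimulated cultures had the same change of medium or the same total time at their O2. Stimulation, medium change and time at that O2 thus cannot be told apart.

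Hexokinases trap glucose in the cell as glucose 6-phosphate. Hk1 is the broadly expressed form and Hk2 the main form of insulin-sensitive muscle, and both can bind the outer mitochondrial membrane. Phosphofructokinase-1 commits the sugar to glycolysis by making fructose 1,6-bisphosphate, and its muscle and platelet subunits are encoded by Pfkm and Pfkp. The bifunctional PFKFB enzymes make and remove fructose 2,6-bisphosphate, the strongest allosteric activator of phosphofructokinase-1. Among them Pfkfb3 has a high ratio of kinase to phosphatase activity, Pfkfb4 is known for its expression in testis and tumours, Pfkfb2 is the heart form and Pfkfb1 the liver and muscle form. Tigar, named as a p53-induced regulator, removes the phosphate that the PFKFB kinases add. In many tissues hexokinase and PFKFB genes are transcribed under the hypoxia-inducible factors, which bind a short DNA core in the hypoxia response element.

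The libraries held between 26541858 and 28173745 reads. Myotube markers were present in all groups, with 8 of 8 detected and summed normalized counts of 390592 to 490619 per library. Summed myoblast markers ranged from 2974 to 5301, and the markers of leukocytes, endothelium, epithelium and fat summed to at most 5.72, with none of these 4 at 0 in all libraries and Epcam, the epithelial marker, at 0 outside 1 % STIM. Within the myoblast list the means moved in different directions. In 5 % CTRL, 1 % CTRL, 5 % STIM and 1 % STIM they were 3524, 2001, 2727 and 1325 for Myod1, 149, 231, 194 and 306 for Myf5, 179, 287, 137 and 225 for Pax7, and 1250, 1239, 1358 and 1255 for the proliferation marker Mki67. Of the 8 myotube markers, 5 had a lower mean in 1 % CTRL than in 5 % CTRL (Ckm, Myh3, Myog, Ttn, Tnnt3) and 3 a slightly higher one (Acta1, Mymk, Des). The mean of Myog, which drives terminal differentiation, was 30613, 19439, 21265 and 12522 in the order above. The part of these differences in the results was not tested. In bulk RNA, fewer cells of a type and less RNA per cell cannot be told apart. As a check of the O2 label, 6 of 6 textbook hypoxia targets (Slc2a1, Vegfa, Pdk1, Egln3, Bnip3, Ndrg1) rose in 1 % CTRL, beside 29.4 % of all genes tested. Of them 5 also rose in 1 % STIM against 5 % STIM, beside 29.0 %, and Vegfa fell there by 0.09 on the log2 scale. As a check of the stimulation label, only 1 of 4 immediate early genes rose with stimulation at either O2. Nr4a1 rose by 1.27 at 5 % O2 and 1.20 at 1 % O2 on the log2 scale (adjusted p = 1.26e-17 and 4.97e-17, limma), whereas Fos, Egr1 and Fosb did not pass the test in either comparison.

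Letters of the hypoxia response element were looked up in the 300 bases around each transcription start that RefSeq lists for the 9 genes, from 250 bases before the start to 50 from it (assembly GRCm38.p6, the build used for the reads). The cores searched were ACGTG and GCGTG on both strands, and a CACGTG counts once on each strand. Of 19 windows, 13 held at least 1 core, beside 43.8 % of the 32851 windows of all genes. ACGTG alone was found in 19.6 % of all windows and GCGTG in 32.4 %. The 6 windows without a core were those of Tigar, 1 of Hk1, 1 of Pfkm and 3 of Pfkfb1. TGACGTCA, the cyclic AMP response element, was in none of the 19 windows and in 1.79 % of all windows. Which start these myotubes used was not measured, and a match in these letters is not a binding site. All windows of the 4 genes whose O2 response is largest or changed with stimulation (Pfkfb3, Hk1, Hk2, Pfkp) are printed here 5′ to 3′ on the strand of the gene, with the cores in capitals, and the Tigar window stands beside them as that of a gene without a core in any window.
Pfkfb3, start 1, chr2:11553880-11554179, minus strand: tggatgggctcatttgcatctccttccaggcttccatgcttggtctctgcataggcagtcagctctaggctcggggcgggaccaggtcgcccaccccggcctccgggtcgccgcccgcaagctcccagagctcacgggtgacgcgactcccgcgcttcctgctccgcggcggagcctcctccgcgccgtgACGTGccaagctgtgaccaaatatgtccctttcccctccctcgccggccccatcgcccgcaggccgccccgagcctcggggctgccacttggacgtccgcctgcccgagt
Pfkfb3, start 2, chr2:11502041-11502340, minus strand: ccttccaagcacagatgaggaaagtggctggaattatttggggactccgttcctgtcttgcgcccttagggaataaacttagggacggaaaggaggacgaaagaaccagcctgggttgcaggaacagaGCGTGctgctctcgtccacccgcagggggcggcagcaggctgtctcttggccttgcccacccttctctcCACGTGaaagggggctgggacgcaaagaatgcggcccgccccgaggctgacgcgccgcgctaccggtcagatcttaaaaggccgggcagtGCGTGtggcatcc
Hk1, start 1, chr10:62379859-62380158, minus strand: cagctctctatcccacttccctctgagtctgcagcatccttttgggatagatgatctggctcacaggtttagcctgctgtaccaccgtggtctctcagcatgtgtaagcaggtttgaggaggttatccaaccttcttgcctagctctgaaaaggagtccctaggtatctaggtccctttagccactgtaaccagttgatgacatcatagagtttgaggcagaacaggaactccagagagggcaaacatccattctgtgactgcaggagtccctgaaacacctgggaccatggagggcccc
Hk1, start 2, chr10:62340372-62340671, minus strand: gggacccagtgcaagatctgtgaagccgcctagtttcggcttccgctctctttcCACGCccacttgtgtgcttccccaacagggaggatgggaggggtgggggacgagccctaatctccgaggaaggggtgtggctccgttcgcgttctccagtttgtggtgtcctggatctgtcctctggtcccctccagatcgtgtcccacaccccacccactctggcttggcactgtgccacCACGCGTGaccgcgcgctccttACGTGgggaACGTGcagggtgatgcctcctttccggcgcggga
Hk2, start 1, chr6:82774405-82774704, minus strand: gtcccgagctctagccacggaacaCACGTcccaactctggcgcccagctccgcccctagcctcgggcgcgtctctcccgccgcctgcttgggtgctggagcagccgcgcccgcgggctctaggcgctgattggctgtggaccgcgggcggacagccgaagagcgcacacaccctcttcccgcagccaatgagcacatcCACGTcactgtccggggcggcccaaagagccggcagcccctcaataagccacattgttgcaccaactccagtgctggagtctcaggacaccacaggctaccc
Pfkp, start 1, chr13:6648722-6649021, minus strand: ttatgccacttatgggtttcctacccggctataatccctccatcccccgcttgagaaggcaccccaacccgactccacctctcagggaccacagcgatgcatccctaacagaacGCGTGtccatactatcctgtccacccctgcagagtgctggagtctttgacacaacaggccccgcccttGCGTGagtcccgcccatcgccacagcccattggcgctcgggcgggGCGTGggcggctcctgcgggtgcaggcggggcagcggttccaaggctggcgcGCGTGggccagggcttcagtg
Tigar, start 1, chr6:127109503-127109802, minus strand: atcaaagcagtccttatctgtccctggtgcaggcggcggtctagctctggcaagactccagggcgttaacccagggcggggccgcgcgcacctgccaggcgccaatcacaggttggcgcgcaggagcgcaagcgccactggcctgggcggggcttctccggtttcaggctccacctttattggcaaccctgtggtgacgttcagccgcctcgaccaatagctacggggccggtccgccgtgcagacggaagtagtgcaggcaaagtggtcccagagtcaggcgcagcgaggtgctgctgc

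The second Pfkfb3 window held 4 cores, with a CACGTG 53 bases before the start counted on both strands. The second Hk1 window held 5, of which 2 lay past the start. Hk2 had 2 ACGTG cores, both on the opposite strand, and Pfkp had 4 GCGTG cores and no ACGTG. Outside the printed windows, the 3 Pfkfb2 windows held 6 cores although Pfkfb2 had the smallest log2 difference of the PFKFB genes between 1 % CTRL and 5 % CTRL. The 4 Pfkm windows held 6, the single Pfkfb4 window held 1, and the 4 Pfkfb1 windows held 1. Some windows of Pfkm and of Pfkfb2 overlap and share letters, and 1 GCGTG of Pfkm was counted in 2 windows.

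**Figure D1:**
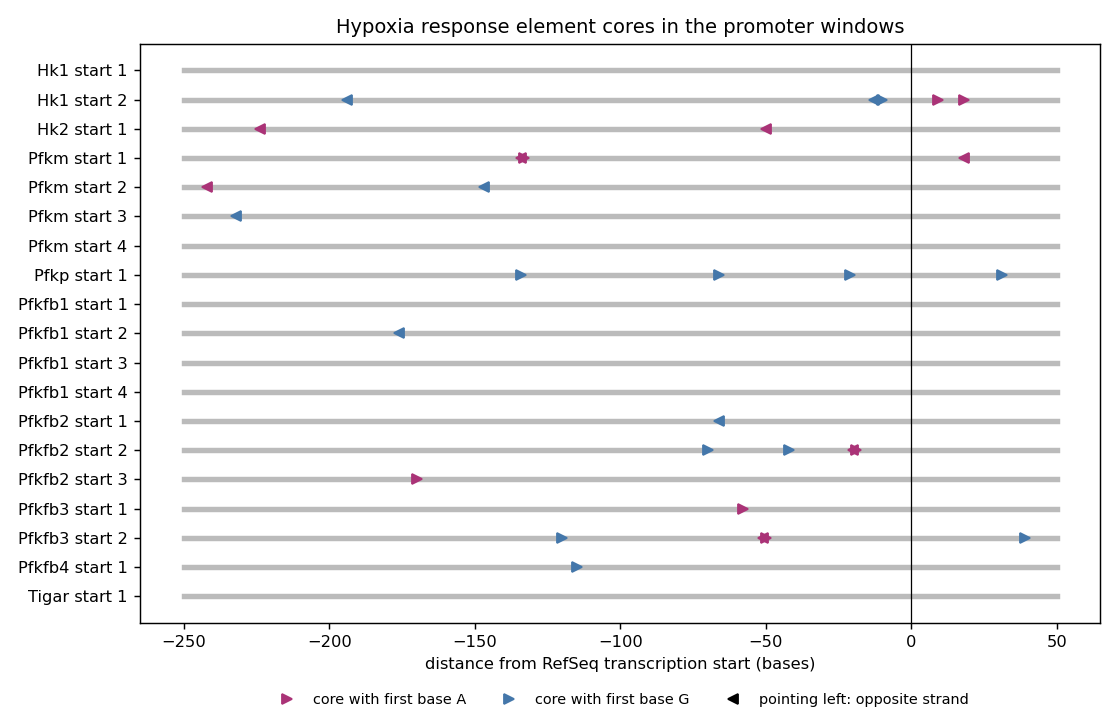
Position of the cores ACGTG and GCGTG (middle base) in the 19 RefSeq promoter windows of the 9 genes, in bases from the transcription start, with magenta for the core beginning with A, blue for the core beginning with G, and the arrow pointing right for the strand of the gene and left for the opposite strand. Cores were found in 13 windows, and those of Tigar, 1 of Hk1, 1 of Pfkm and 3 of Pfkfb1 are empty.

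The first question of the design is what 2 h under 1 % O2 did to unstimulated myotubes. In 1 % CTRL, 6 of the 9 genes were higher than in 5 % CTRL, beside 29.4 % of all genes tested, and 1 was lower, beside 30.5 %. The increase was largest for Pfkfb3, followed by Hk1, Hk2, Pfkfb1, Pfkfb4 and Pfkp, and Pfkm was the gene that fell. Pfkfb2 and Tigar did not pass the test. The median log2 difference was 0.38 over the 9 genes and 0.0015 over all genes tested. When libraries were instead rescaled to the same total, the share of calls that were higher moved from 49.0 % to 62.7 % over all genes. The size factors that counts were divided by were 0.9545 to 0.9925 at 5 % O2 and 1.017 to 1.051 at 1 % O2. The scaling thus went with O2, and small O2 differences depend on its choice.

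**Figure D2:**
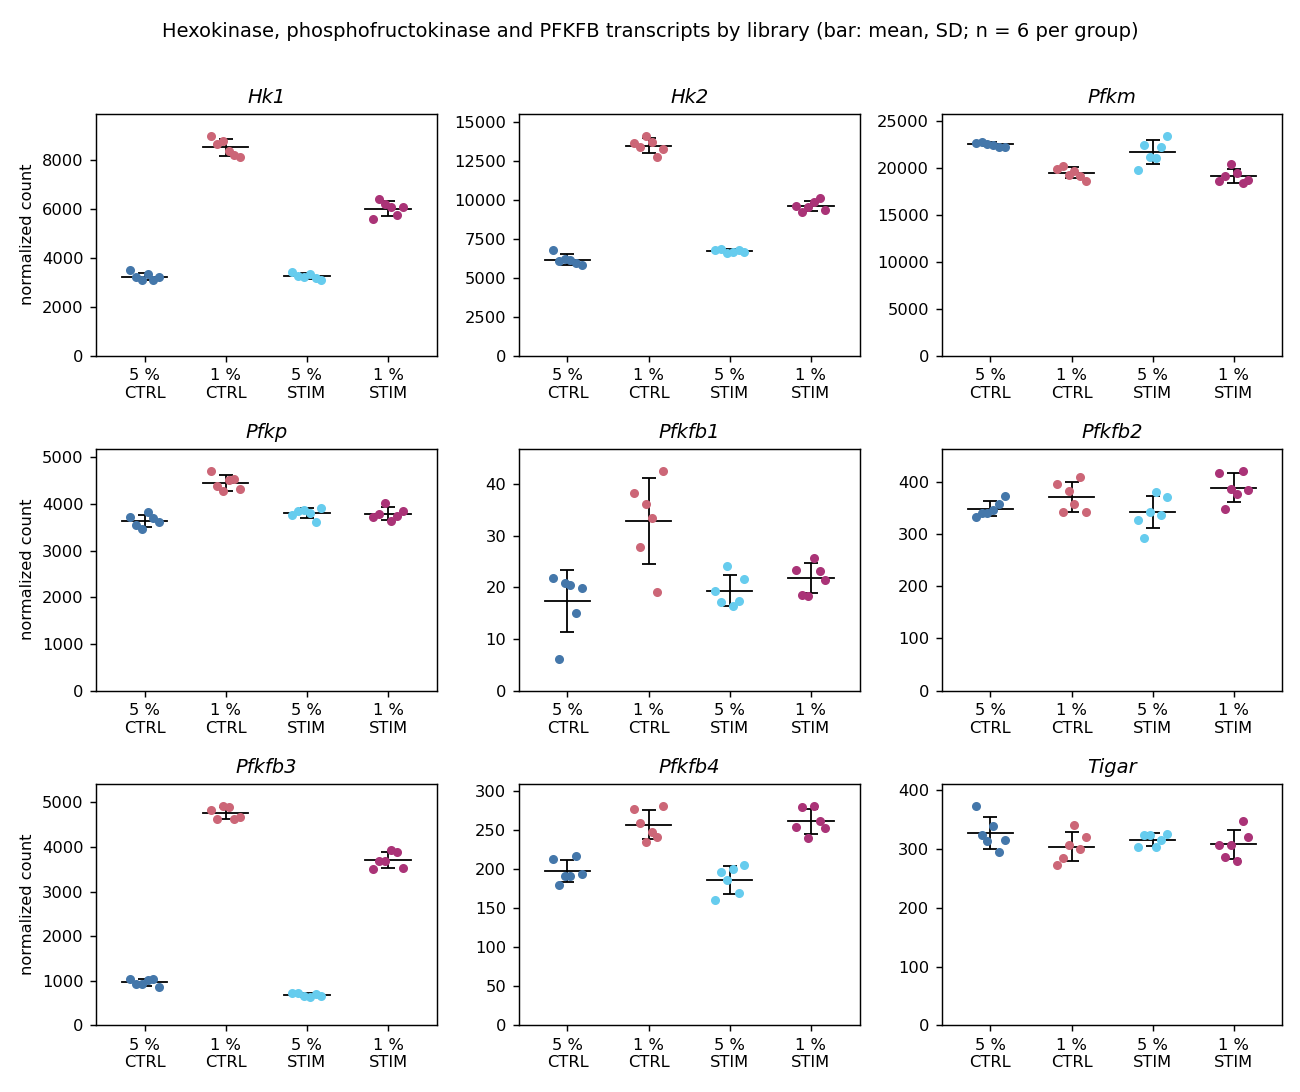
Normalized count (the deposited value, a count over the library's size factor, linear axis from 0) of the 9 genes in every library. Points are the 6 libraries of a group, the bar is their mean and the whiskers the SD. Pfkfb3 separates all 4 groups, Hk1 and Hk2 separate 3 levels, and Tigar shows overlapping groups throughout.

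Hk1 (ENSMUSG00000037012, chr10:62268855-62379908 of GRCm38, minus strand) ranged from 3086 to 3498 normalized counts in 5 % CTRL (median 3214) and from 8125 to 9008 in 1 % CTRL (median 8525). The groups stood far apart, and the ratio of their means was 2.63. The log2 difference was 1.40 ± 0.035 (SE; adjusted p = 1.53e-26, limma). After stimulation the same O2 comparison gave a lower but still separate rise. Hk1 ranged from 3118 to 3439 in 5 % STIM (median 3241) and from 5608 to 6419 in 1 % STIM (median 6083), a log2 difference of 0.88 ± 0.035 (adjusted p = 6.53e-21, limma). Of its exon bases, 1.84 % are shared with the opposite-strand transcript Hk1os.

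Hk2 (ENSMUSG00000000628, chr6:82725025-82774454, minus strand) ranged from 5789 to 6783 normalized counts in 5 % CTRL (median 6099) and from 12708 to 14095 in 1 % CTRL (median 13507). Its lowest 1 % CTRL library lay above every library of the other groups. The log2 difference was 1.13 ± 0.031 (SE; adjusted p = 2.34e-25, limma), with a ratio of means of 2.19. In the stimulated cultures the level rose less, from a median of 6697 in 5 % STIM (6599 to 6862) to a median of 9549 in 1 % STIM (9232 to 10075). That is a log2 difference of 0.52 ± 0.031 (adjusted p = 5.91e-16, limma). Hk2 shares no exon base with another gene.

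The phosphofructokinase-1 subunits went in different directions. Pfkm (ENSMUSG00000033065, chr15:98092589-98132451, plus strand), the muscle subunit, ranged from 22255 to 22827 normalized counts in 5 % CTRL (median 22555) and from 18619 to 20246 in 1 % CTRL (median 19478), with no overlap. It fell by 0.21 on the log2 scale (SE 0.032, adjusted p = 8.62e-07, limma), and by 0.13 when libraries were rescaled to the same total, which also passed the test. In stimulated cultures the ranges overlapped, with 19794 to 23441 in 5 % STIM (median 21711) and 18375 to 20453 in 1 % STIM (median 18924), and it fell by 0.18 (adjusted p = 1.11e-05, limma), or by 0.11 with the rescaled libraries (adjusted p = 0.00147). In terms of the mean, Pfkm fell by 13.5 % in unstimulated cultures and fell by 11.8 % in stimulated ones. An overlapping gene model on the same strand, Gm26513, covers 341 of its exon bases, and 8.13 % of the 75-base words of its exons occur in other genes.

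Pfkp (ENSMUSG00000021196, chr13:6579768-6648777, minus strand), the platelet subunit, had a range of 3455 to 3829 normalized counts in 5 % CTRL (median 3651) and of 4267 to 4713 in 1 % CTRL (median 4447). Only 1 % CTRL stood apart from the other groups. Its rise was 0.29 ± 0.031 on the log2 scale (SE; adjusted p = 5.18e-10, limma), or a ratio of means of 1.22. In stimulated cultures no rise with 1 % O2 was found, with 3610 to 3923 in 5 % STIM (median 3832) and 3638 to 4023 in 1 % STIM (median 3763). The log2 difference was -0.01 with a 95 % confidence interval from -0.07 to 0.06 (adjusted p = 0.885, limma), which lies below the rise in unstimulated cultures. Exons of the opposite-strand gene Pitrm1 cover 5.58 % of Pfkp, and the counting was not stated to use strand.

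Pfkfb3 (ENSMUSG00000026773, chr2:11471433-11554077, minus strand), the PFKFB form with the highest kinase share, ranged from 857 to 1048 normalized counts in 5 % CTRL (median 963) and from 4621 to 4927 in 1 % CTRL (median 4756). The means differed by a ratio of 4.93. The log2 difference of 2.30 ± 0.044 was the largest of the 9 genes (SE; adjusted p = 9.58e-30, limma). The rise was also present after stimulation, from 634 to 727 in 5 % STIM (median 685) to 3499 to 3929 in 1 % STIM (median 3685). There the log2 difference was 2.44 ± 0.044 (adjusted p = 7.63e-30, limma) and the ratio of means 5.42. Pfkfb3 has no exon base in common with another gene.

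Pfkfb4 (ENSMUSG00000025648, chr9:108991778-109032228, plus strand) was a low transcript whose 1 % O2 libraries lay above all 5 % O2 libraries. It ranged from 180 to 217 normalized counts in 5 % CTRL (median 192) and from 235 to 281 in 1 % CTRL (median 253). In the stimulated groups it ranged from 160 to 205 (median 191) at 5 % O2 and from 240 to 280 (median 257) at 1 % O2. The log2 differences were 0.38 ± 0.069 without stimulation (adjusted p = 1.79e-05, limma) and 0.49 ± 0.069 with it (adjusted p = 2.72e-07).

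Pfkfb2 (ENSMUSG00000026409, chr1:130689182-130729253, minus strand) had overlapping ranges in all groups. It ranged from 334 to 373 normalized counts in 5 % CTRL (median 344), 342 to 410 in 1 % CTRL (median 371), 293 to 380 in 5 % STIM (median 340) and 348 to 422 in 1 % STIM (median 385). The difference between 1 % STIM and 5 % STIM passed the test (log2 0.19 ± 0.062, adjusted p = 0.00983, limma), and that between 1 % CTRL and 5 % CTRL did not (log2 0.09, 95 % confidence interval -0.03 to 0.22, adjusted p = 0.209, limma). The difference between these responses was not past the threshold (interaction 0.10, adjusted p = 0.535, limma). Rescaling all libraries to 1 total gave an unstimulated difference that passed. It was 0.17 (adjusted p = 0.0177, limma). Overlapping genes, chiefly the same-strand model Gm29427, cover 19.5 % of the exon bases of Pfkfb2.

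Pfkfb1 (ENSMUSG00000025271, chrX:150588229-150643878, plus strand) was close to the detection limit, with 6 to 44 reads per library in the unstimulated groups and 16 to 27 in the stimulated ones. Normalized counts lay between 6.10 and 21.8 in 5 % CTRL (median 20.2) and between 19.2 and 42.7 in 1 % CTRL (median 34.9), with an overlap. The rise passed the test at 0.94 ± 0.226 on the log2 scale (adjusted p = 0.000541, limma), and leaving out any 1 library gave 0.69 to 1.08. In stimulated cultures the ranges were 16.4 to 24.2 at 5 % O2 (median 18.4) and 18.3 to 25.7 at 1 % O2 (median 22.3), with a log2 difference of 0.16 (95 % confidence interval -0.30 to 0.62, adjusted p = 0.560, limma). The interaction of -0.78 did not pass (adjusted p = 0.118, limma). The difference of -0.54 between 1 % STIM and 1 % CTRL missed the threshold (adjusted p = 0.0835, limma) and passed it without replicate 2 of 5 % CTRL (adjusted p = 0.0242) or without replicate 5 of 1 % CTRL (-0.69, adjusted p = 0.0285).

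Tigar (ENSMUSG00000038028, chr6:127085116-127109557, minus strand), the fructose-2,6-bisphosphatase, passed the test in none of the comparisons. It ranged from 295 to 374 normalized counts in 5 % CTRL (median 319.7), 272 to 340 in 1 % CTRL (median 303), 303 to 326 in 5 % STIM (median 320.0) and 280 to 348 in 1 % STIM (median 307). The ranges overlapped between all groups. The O2 difference was -0.10 on the log2 scale without stimulation (95 % confidence interval -0.23 to 0.02, adjusted p = 0.150, limma) and -0.04 with it (adjusted p = 0.599, limma).

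In stimulated cultures as a whole, 5 of the 9 genes were higher in 1 % STIM than in 5 % STIM, beside 29.0 % of all genes tested, and 1 was lower, beside 28.4 %. Hk1, Hk2, Pfkfb2, Pfkfb3 and Pfkfb4 were the genes that rose and Pfkm the gene that fell. The median log2 difference was 0.19 over the 9 genes and -0.00083 over all genes tested. The share of calls that were higher moved from 50.4 % to 63.2 % when libraries were rescaled to the same total.

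**Figure D3:**
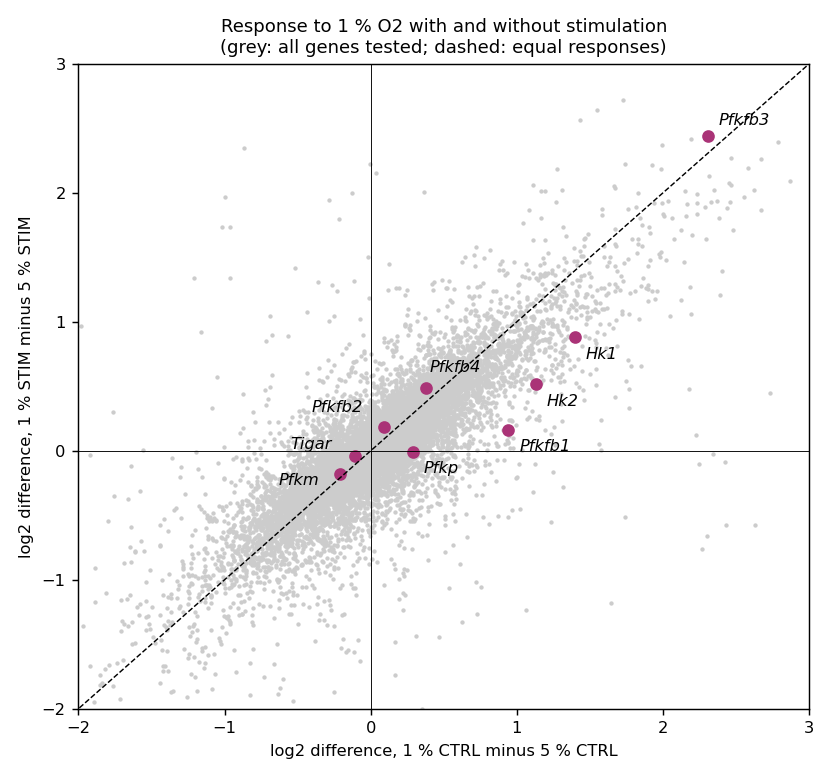
Log2 difference between 1 % and 5 % O2 in unstimulated (horizontal axis) and stimulated (vertical axis) cultures, for all 14541 genes tested (grey; those outside -2 to 3 on either axis are not drawn) and the 9 genes (magenta, labelled). The dashed line marks equal responses. Pfkfb3 lies close to it at 2.30 and 2.44, and Hk1 (1.40 and 0.88), Hk2 (1.13 and 0.52) and Pfkp (0.29 and -0.01) lie below it.

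The second question is what stimulation did at each O2. At 5 % O2, 1 of the 9 genes was higher after stimulation, beside 9.44 % of all genes tested, and 1 was lower, beside 12.0 %. Hk2 rose by 0.13 ± 0.031 on the log2 scale (SE; adjusted p = 0.00297, limma), with ranges that overlapped. Pfkfb3 fell by 0.50 (SE 0.044, adjusted p = 8.80e-11, limma), and its mean, 966 ± 79.7 normalized counts in 5 % CTRL and 683 ± 39.7 in 5 % STIM (SD, n = 6), fell by 29.3 % with no overlap. Hk1 differed by 0.01 with a 95 % confidence interval from -0.06 to 0.08 (adjusted p = 0.869, limma). The median was -0.03 over the 9 genes and -0.0076 over all genes. Of all calls 44.0 % were higher, and 62.2 % with libraries rescaled to the same total, under which Pfkp also passed (0.10, adjusted p = 0.0200, limma).

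At 1 % O2, 0 of the 9 genes were higher after stimulation, beside 11.5 % of all genes tested, and 4 were lower, beside 10.8 %. These were the genes with the largest O2 responses and Pfkp. On the log2 scale Hk1 fell by 0.50 (SE 0.035, adjusted p = 1.66e-13, limma) and Hk2 fell by 0.49 (SE 0.031, adjusted p = 1.83e-14, limma). Pfkfb3 fell by 0.36 (SE 0.044, adjusted p = 6.59e-08, limma) and Pfkp fell by 0.23 (SE 0.031, adjusted p = 3.50e-07, limma). In means, Hk1 fell by 29.4 %, Hk2 fell by 28.7 %, Pfkfb3 fell by 22.3 % and Pfkp fell by 14.9 %. None of the 4 had overlapping groups, in the same libraries that the test used, and overlap was not counted over all genes. No gene of the 9 passed in the other direction at an unadjusted p under 0.05, nor by edgeR or DESeq2 after adjustment. The median was -0.23 over the 9 genes and -0.0031 over all genes, and the share of calls that were higher went from 51.4 % to 62.3 % with libraries rescaled to the same total. The hypoxia targets of the label check moved with these genes, since 6 of 6 were lower in 1 % STIM than in 1 % CTRL. Slc2a1, the glucose transporter that supplies hexokinase, went from 12888 to 8337 normalized counts on average and fell by 0.63 (adjusted p = 9.39e-17, limma). The part of such a shared shift in the fall of the 4 genes was not tested.

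**Figure D4:**
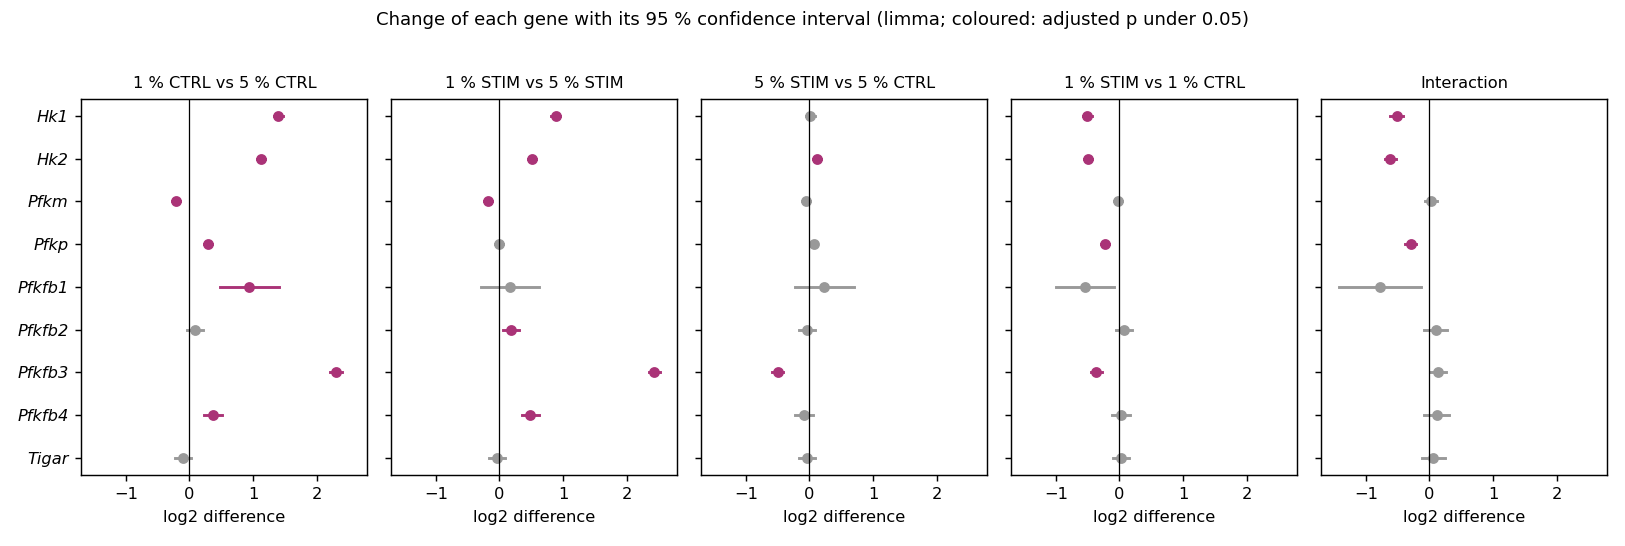
Log2 difference of each gene in the 4 pairwise comparisons and in the interaction, which is the stimulation response at 1 % O2 minus that at 5 % O2. Points are limma estimates, lines their 95 % confidence intervals, and magenta marks an adjusted p under 0.05. The O2 responses of Pfkfb3 reach 2.30 and 2.44, and the interaction is below 0 for Hk1, Hk2 and Pfkp.

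The interaction asks whether the response to stimulation depended on O2. It was below 0 for 3 of the 9 genes, beside 5.43 % of all genes tested, and above 0 for 0, beside 5.88 % (limma; 1 at an unadjusted p under 0.05, and 0 after adjustment by edgeR or DESeq2). Hk1 (-0.51 ± 0.049, adjusted p = 2.46e-09, limma), Hk2 (-0.61 ± 0.044, adjusted p = 3.54e-12) and Pfkp (-0.30 ± 0.043, adjusted p = 1.08e-05) were those genes. In normalized counts, the difference between 1 % and 5 % O2 in stimulated cultures was 52.2 % of that in unstimulated cultures for Hk1 and 39.6 % for Hk2. For Pfkfb3 the same share was 79.5 %, and the ratio of its stimulated to its unstimulated mean was 0.707 at 5 % O2 and 0.777 at 1 % O2. Its interaction was 0.13 ± 0.063 (95 % confidence interval 0.01 to 0.26, unadjusted p = 0.0405, adjusted p = 0.179, limma). Pfkfb4, Pfkfb2, Pfkm and Tigar had interactions of 0.11, 0.10, 0.03 and 0.06 that did not pass. The rise from 5 % CTRL to 1 % CTRL and the fall from 1 % CTRL to 1 % STIM of Hk1, Hk2 and Pfkp share the 1 % CTRL libraries and are not independent. The interaction has a median of 0.03 over the 9 genes and 0.0072 over all genes. All 6 hypoxia targets of the label check also had an interaction below 0 (adjusted p under 0.05, limma). These were Slc2a1 (-0.52), Vegfa (-0.59), Pdk1 (-0.34), Egln3 (-0.46), Bnip3 (-0.40) and Ndrg1 (-1.21).

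Ordered by level, Hk1 and Hk2 had the sequence 5 % CTRL, 5 % STIM, 1 % STIM, 1 % CTRL, in which the 5 % O2 groups overlapped each other and each later step was separate. Pfkfb3 had the sequence 5 % STIM, 5 % CTRL, 1 % STIM, 1 % CTRL with no overlap at any step. For Pfkp the step up to 1 % CTRL was the single separate step, and for Pfkfb4 the step from 5 % to 1 % O2. Neighbouring groups of Pfkm, Pfkfb1, Pfkfb2 and Tigar all overlapped.

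Levels of different genes were compared per kilobase of merged exon, as a description without a test. Merged exon is the union of all annotated exons (13401 bases for Pfkp, 8532 for Hk1) and not the length of the transcript in use. The order of some genes depends on it. Undivided, the 5 % CTRL mean of Pfkp (3642) lay above that of Hk1 (3241), and that of Pfkfb2 (349) above that of Tigar (327). Pfkm was the most abundant of the 9 in 5 % CTRL at 6742 ± 65.0 normalized counts per kilobase (SD, n = 6). Hk2 followed at 1031 ± 57.0, Hk1 at 380 ± 18.5, Pfkp at 272 ± 9.83 and Pfkfb3 at 128 ± 10.5. Tigar (89.4 ± 7.40), Pfkfb2 (48.1 ± 1.96), Pfkfb4 (40.5 ± 2.89) and Pfkfb1 (4.33 ± 1.49) were lower. In 5 % CTRL the phosphofructokinase-1 transcripts were thus mainly those of the muscle subunit, well above hexokinase, and those of the regulators were scarce beside both. In 1 % CTRL, Pfkfb3 was at 630 ± 18.6 and Pfkp at 332 ± 12.3. Protein of these genes was not measured here.

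The pool of hexokinase transcripts, Hk1 plus Hk2 per kilobase, was 1411 ± 71.4 in 5 % CTRL and 3254 ± 108 in 1 % CTRL, and 1506 ± 24.5 in 5 % STIM and 2314 ± 42.2 in 1 % STIM (SD, n = 6). Hk2 made up 73.1 % ± 0.79 of it in 5 % CTRL and 69.3 % ± 0.68 in 1 % CTRL, so that it stayed the major form while both genes rose. The shares in 5 % STIM and 1 % STIM were 74.6 % ± 0.67 and 69.5 % ± 1.56. The PFKFB pool was 221 ± 12.8 per kilobase in 5 % CTRL and 742 ± 19.8 in 1 % CTRL, and 180 ± 2.09 in 5 % STIM and 602 ± 25.4 in 1 % STIM. Its make-up differed more between these groups than that of hexokinase did. Pfkfb3 went from 57.8 % ± 1.98 of the pool in 5 % CTRL to 84.9 % ± 0.66 in 1 % CTRL, and from 50.1 % ± 3.30 in 5 % STIM to 81.3 % ± 0.72 in 1 % STIM. The share of Pfkfb2 went from 21.8 % to 6.91 % and that of Pfkfb4 from 18.3 % to 7.10 % between the unstimulated groups, although neither transcript fell. Pfkfb1 was 0.90 % to 2.67 % of the pool in all groups.

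Pfkl, the liver subunit of phosphofructokinase-1, belongs to the same enzyme but not to the genes chosen, and the make-up of the enzyme's transcripts turns on it. Its means were 3284 ± 213, 8942 ± 281, 2907 ± 155 and 6337 ± 262 normalized counts in 5 % CTRL, 1 % CTRL, 5 % STIM and 1 % STIM (SD, n = 6). No exon base of Pfkl (ENSMUSG00000020277, chr10:77986947-78010083, minus strand) is shared with another gene. It rose by 1.45 under 1 % O2 without stimulation (adjusted p = 5.31e-26, limma) and by 1.12 with it, beside the small fall of Pfkm. Like Hk1, Hk2 and Pfkp, Pfkl had an interaction below 0 (-0.32, adjusted p = 6.99e-05, limma). Of Pfkm, Pfkp and Pfkl together, Pfkm made up, per kilobase and in the same order of groups, 89.8 % ± 0.50, 77.7 % ± 0.34, 90.0 % ± 0.79 and 82.3 % ± 0.57. Pfkp was between 3.62 % and 4.43 % of the 3 in all groups, and between 12.4 % and 13.5 % without division by length. Without Pfkl, the share of Pfkm was 96.1 % in 5 % CTRL and 94.6 % in 1 % CTRL. Without division by length as well, these shares were 86.1 % and 81.4 %.

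**Figure D5:**
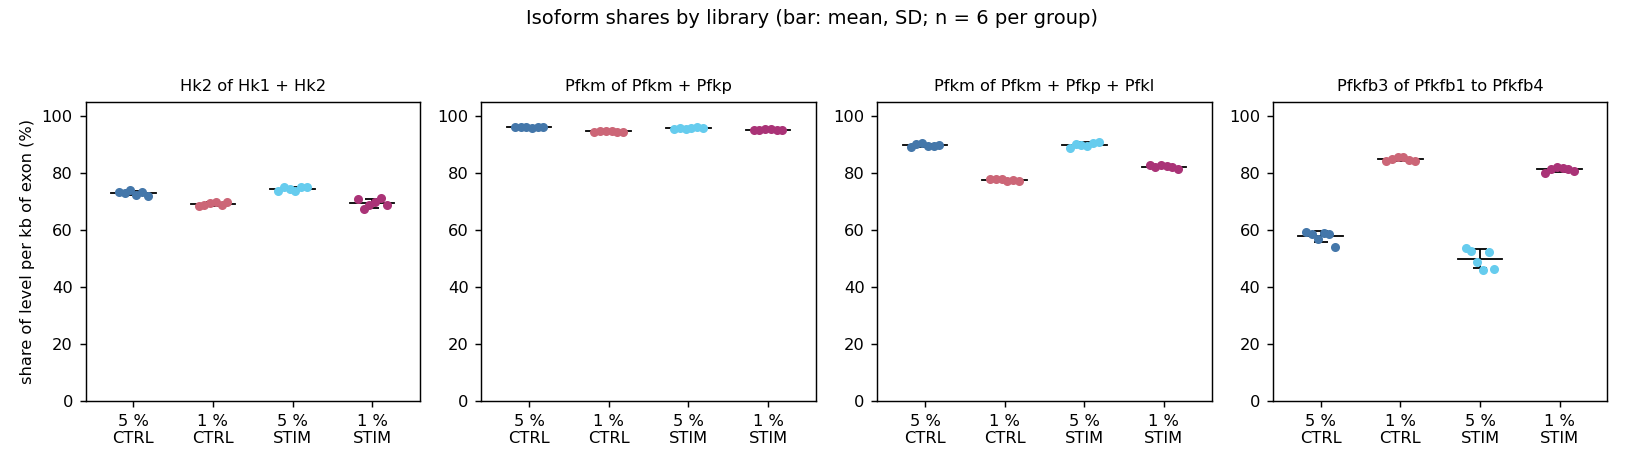
Share of 1 isoform in the summed level per kilobase of exon, in percent from 0, for Hk2 in hexokinase, Pfkm in phosphofructokinase-1 without and with Pfkl, and Pfkfb3 in the PFKFB genes. Points are libraries, bars the mean and SD of 6. Pfkfb3 moves from 57.8 % to 84.9 % with 1 % O2 in unstimulated cultures, and Hk2 from 73.1 % to 69.3 %.

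Other genes of the pathway were counted from lists chosen by name, with earlier results of these data known. Of 11 other genes of the hexokinase and phosphofructokinase steps, 4 were tested (Pfkl, Slc37a4, Adpgk, G6pc3). Of these 4, 3 rose and 1 fell in 1 % CTRL, beside 29.4 % and 30.5 % of all genes. Slc37a4, the glucose 6-phosphate transporter of the endoplasmic reticulum, rose by 0.56. Among the others, Hk3, Hkdc1 and Fbp2 were below the filter, and G6pc and Fbp1 had no read in any library. The rest of glycolysis (13 genes, 14 identifiers because Aldoa has 2) had 10 higher and 2 lower in 1 % CTRL, beside 29.4 % and 30.5 % of all genes. In stimulated cultures 8 were higher and 2 lower under 1 % O2, beside 29.0 % and 28.4 %. Without stimulation Eno2 rose by 2.08, Pgam1 by 0.83, Gpi1 by 0.44 and Pgk1 by 0.41. The second Aldoa identifier rose by 1.71 from a mean of 4.99 normalized counts. The main Aldoa identifier, with a mean of 50710 in 5 % CTRL, did not pass. Its O2 difference was 0.07 without stimulation and -0.05 with it (adjusted p = 0.191 and 0.410, limma). Of the 2 that fell, the muscle form Pgam2 fell by 0.33 and Aldoc fell by 0.20. After stimulation, 10 of these 14 were lower at 1 % O2 and 2 at 5 % O2, and the interaction was below 0 for 5 (limma, adjusted p under 0.05; the shares of all genes are those given above).

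Of 13 genes that lead hexose phosphates elsewhere, 6 were higher and 4 lower in 1 % CTRL, beside 29.4 % and 30.5 % of all genes tested, so the number lower was near the background. In 1 % STIM against 5 % STIM 7 were higher and 4 lower, beside 29.0 % and 28.4 %. H6pd, the first enzyme of the pentose phosphate route in the endoplasmic reticulum, rose by 0.60 and Pgm1, which leads to glycogen, by 0.60. Rpia and Tkt of the non-oxidative pentose phosphate branch fell by 0.71 and 0.41, and Gfpt2 of the hexosamine route fell by 0.61 from a mean of 29.6. After stimulation 2 were lower at 5 % O2, beside 12.0 % of all genes, and 1 was higher and 1 lower at 1 % O2, beside 11.5 % and 10.8 %, which are counts near the background. Of 12 genes for kinases and channels that act on PFKFB or hexokinase, 5 rose and 2 fell in 1 % CTRL (29.4 % and 30.5 % of all genes), among them the AMP-activated kinase subunits Prkag2 (0.36), Prkab2 (0.23) and Prkag3 (0.18), the hexokinase docking channel Vdac1 (0.20), and Akt2, which fell by 0.16. In 1 % STIM against 5 % STIM 5 were higher and 1 lower (29.0 % and 28.4 % of all genes). After stimulation 4 were lower at each O2 (12.0 % of all genes at 5 % O2 and 10.8 % at 1 % O2).

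The median log2 difference between 1 % CTRL and 5 % CTRL was 0.36 over the other genes of the first steps, 0.34 over the rest of glycolysis, 0.09 over the genes that lead elsewhere and 0.05 over the kinases and channels, beside 0.0015 over all genes tested.

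Tigar was set beside 10 other p53 targets, whose median was 0.13 in that comparison. In 1 % CTRL, 5 of them rose and 2 fell, beside 29.4 % and 30.5 % of all genes, with Zmat3 at 0.69, Sesn1 at 0.39, Sesn2 at 0.29, Mdm2 at -0.38 and Gdf15 at -0.83. After stimulation 4 rose and 2 fell at 5 % O2, beside 9.44 % and 12.0 %, and 5 rose and 1 fell at 1 % O2, beside 11.5 % and 10.8 %. Trp53inp1 rose by 1.12 and 1.48, Gdf15 by 1.21 and 1.45 and Sesn2 by 0.87 and 0.77 at 5 % and 1 % O2. Tigar itself was at -0.04 and 0.02 in those comparisons and did not pass (adjusted p = 0.671 and 0.878, limma).

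The 4 group means of each gene, on the log2 scale and centred, were compared with those of 10795 tested genes with a mean of at least 100, and the nearest genes were taken by root mean square difference over the 4 groups. Nearest to Hk1 were Tmem45a (0.05), Ifi211 (0.06) and Pcyt1b (0.06). Nearest to Hk2 were Higd1a (0.05), Cxxc5 (0.06) and Sertad3 (0.06). The closest genes to Pfkfb3 were Uhrf1 (0.14), Kbtbd11 (0.16) and Chaf1b (0.17), which lie further off than the nearest genes of any other member. Uhrf1 had means of 384, 2104, 343 and 1442 normalized counts in 5 % CTRL, 1 % CTRL, 5 % STIM and 1 % STIM. For Pfkp they were 2310022B05Rik, Osbp2 and Lctl, for Pfkfb1 Kntc1, Dlx3 and Arrb1, and for Pfkfb4 Ikbke, Atg2b and Ccdc112. The patterns with small changes, those of Pfkm (Chmp4c, Lonp2, Psme3), Pfkfb2 (Taf1, Psmd14, Ahsa1) and Tigar (Prelid3b, Gtf2h2, Txndc5), had neighbours within 0.01. Among the 9 genes, Hk1 and Hk2 were 0.16 apart and Hk1 and Pfkfb3 0.64.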

How the data were processed

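Reads from the stranded mRNA libraries (single end) were checked by the authors with FastQC (0.11.7), aligned to GRCm38 with STAR (2.5.4b) and quantified per gene with RSEM (1.3.0) at default parameters. The signal deposited by the authors is a gene's count over the size factor that DESeq2 gave its library, here called the normalized count. In each library 100 % of values came out as whole reads within 1e-06 of a read, which gave the depth. A second deposited table holds the authors' own comparisons (log2 fold changes, p-values and calls) and was not used.

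After a filter on low values (normalized counts of 10 or more in 6 or more libraries), log2(normalized count + 1) entered a limma (3.58.1, R 4.3.3) fit of the 4 groups with trend and robust, adjusted by Benjamini-Hochberg over all genes tested and called under 0.05. The pseudocount understates fold changes of low genes. P-values measure the spread between these cultures, which exceeded sampling noise. The fit was tested on simulated counts. Exons and overlaps came from GENCODE M21 and promoters from RefSeq.

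Named genes were the 9 members, their 3 nearest genes, and up to 5 called genes of each list with the largest change in 1 % CTRL against 5 % CTRL. Myod1, Myog, Pgam2, Aldoc, Trp53inp1 and the other genes of the label check were named after their values were seen. Members and lists were chosen with earlier results of these data known. Protein sequences were not used here. Alternatives were a pseudocount of 10, no filter, a minimum of 50, a replicate block, a threshold of 0.01, only the groups compared, rescaling to the same total, limma voom, edgeR (4.0.16) and DESeq2 (1.42.0) on whole reads, each library left out in turn, and shares not divided by exon length.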

Additional observations from a re-analysis of the deposited data

Results flagged for a closer look

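For 3 of the 9 genes the response to stimulation differed between the O2 levels, tested as the interaction in limma. It was -0.51 for Hk1 (log2, stimulation response at 1 % O2 minus that at 5 % O2), -0.61 for Hk2 and -0.30 for Pfkp. In each case the response was a fall at 1 % O2 (-0.50, -0.49 and -0.23). There 6 of 6 libraries of 1 % STIM lay below every library of 1 % CTRL, which are the libraries of the test itself. At 5 % O2 the difference was smaller and of the other sign (0.01, 0.13 and 0.06). Of these differences at 5 % O2, that of Hk2 passed the test. Interactions below 0 also passed for Pfkl (-0.32) and for the 6 hypoxia targets of the label check. The sign was thus not particular to the 3 genes. By Dixon's test at the 95 % level, no library passed as an outlier in the 36 combinations of gene and group. The lowest Pfkfb1 library, replicate 2 of 5 % CTRL, nonetheless held 6.10 normalized counts beside 15.1 to 21.8 in the other 5, and without it the O2 difference of Pfkfb1 was 0.69 in place of 0.94 and its difference between 1 % STIM and 1 % CTRL passed the test (adjusted p = 0.0242, limma).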

How the results depend on the processing

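For O2 without and with stimulation, stimulation at 5 % and at 1 % O2, and the interaction, in that order, 7, 6, 2, 4 and 3 of the 9 genes were called. Leaving out each library in turn gave 7, 6, 2, 4 to 5 and 3, and the other alternatives 6 to 8, 6, 2 to 3, 4 to 5 and 3. The interaction has no fit of only the groups compared, since it uses all 4. For single genes, 1463 values kept their side of the threshold and 8 passed it newly, and no called gene lost its call or changed sign. Of the 8, Pfkfb2 and Pfkp passed with libraries rescaled to the same total, and 6 are of Pfkfb1 in 1 % STIM against 1 % CTRL, including edgeR (-0.59, adjusted p = 0.0323) and DESeq2 (-0.60, adjusted p = 0.0344). With 6 to 44 reads per library in the unstimulated groups, depth limits Pfkfb1, which a minimum of 50 removes. Replicate numbers gave no pairing, since same-numbered libraries correlated between -0.15 and 0.15 with 2 of 36 pairs over 0.1, and 5 of 24 libraries correlated best with their own number. The replicate block left 7, 6, 2, 4 and 3 genes called, the same numbers as without it.

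Without division by exon length, shares in 5 % CTRL, 1 % CTRL, 5 % STIM and 1 % STIM were 65.5, 61.2, 67.3 and 61.4 % for Hk2, 76.5, 59.3, 76.3 and 65.4 % for Pfkm and 12.4, 13.5, 13.4 and 13.0 % for Pfkp with Pfkl counted, 1.13, 0.606, 1.58 and 0.497 % for Pfkfb1, 63.1, 87.8, 55.5 and 84.6 % for Pfkfb3, and 12.9, 4.73, 15.1 and 5.97 % for Pfkfb4.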
